A study of Mus musculus with 10 samples.

Results

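The interferon genes described here are 46 genes that take part in, or respond to, interferon signalling in the mouse. They were chosen by gene symbol and comprise the ligand *Ifng*, 4 receptor chains, 6 transcription factors, 22 antiviral effectors of the kind that type I interferons induce, 10 GTPases of the kind that interferon gamma induces and 3 other interferon gamma targets. All 46 symbols were found among the 45706 genes of the count table, and all 46 reached the mean of at least 1 count per library that was required for a test. The lowest mean was 32.8 counts per library.

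Uterine RNA was sequenced from adult female mice that had mated with wildtype males and were at gestation day (GD) 3.5, before implantation. The 5 control uteri carried loxP-flanked *Arid1a* alleles and no Cre (Arid1a f/f), and the other 5 uteri carried the same alleles with iCre (Ltf iCre/+ Arid1a f/f). The lactoferrin locus drives the iCre, which removes *Arid1a*, a subunit gene of the SWI/SNF chromatin remodeling complex, in the endometrial epithelium, whereas the RNA came from the whole uterine tissue. The paper states that this iCre is reportedly also active in neutrophils and further cells of the myeloid lineage. Deletion in those cells was not tested here. The mice were of a mixed C57BL/6, 129S6/SvEvTac, 129P2/OlaHsd and 129S1/SvImJ background. The controls are called control 1 to 5 and the Ltf iCre/+ Arid1a f/f uteri iCre 1 to 5 (iCre uteri together). These are replicate numbers and were not taken as pairs.

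Interferons are secreted proteins that signal through JAK kinases and STAT factors. Type I interferons bind the IFNAR1 and IFNAR2 chains and act mainly through a complex that holds STAT2 and IRF9 and binds the interferon-stimulated response element to turn on antiviral genes. Interferon gamma, made by T cells and NK cells, binds IFNGR1 and IFNGR2 and acts at the gamma-activated site, directly and by way of IRF1, to induce guanylate-binding proteins and immunity-related GTPases that attack vacuoles of intracellular microbes. In the pregnant mouse uterus interferon gamma is known as a product of NK cells that remodels decidual arteries.

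The libraries held between 59296537 and 72702411 counts. Levels are given as CPM, which are counts scaled to a common library size by the TMM method. A gene is past the threshold where the quasi-likelihood test of edgeR gave it a Benjamini-Hochberg adjusted p below 0.05 over the 25146 tested genes. For *Arid1a* itself the log2 fold change was -0.20 (standard error 0.09, edgeR adjusted p = 0.201). The library iCre 5 stood apart in its neutrophil markers, whose 6 genes summed to 855 CPM there and to between 5.86 and 23.1 CPM in the other uteri. Among the 10 uteri, control 1 had the lowest value of every macrophage and every plasmacytoid dendritic cell marker. Because whole tissue was sequenced, fewer cells of a type and less RNA per cell cannot be told apart. Epithelial, stromal and muscle markers were present in every library.

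Of the 46 genes, 3 were past the threshold and higher in iCre uteri (*Ifitm1*, *Mx1* and *Ifngr1*) and 1 was past it and lower (*Ifi44l*). Over all tested genes 5.19% were called higher and 4.51% lower, or 9.70% together, and the 4 interferon genes made up 8.70% of the list, which is near that background. A positive log2 fold change, without regard to a test, was found for 36 genes (78.3%) and a negative one for 10, beside a positive one for 52.7% of all tested genes. The median log2 fold change was 0.41 over the 46 genes and 0.03 over all tested genes. At an unadjusted p under 0.05, 17 of the 46 genes (37.0%) stood out, beside 26.2% of all tested genes. The values of the genotypes did not overlap for 4 of the 46 genes (8.70%, 2 higher and 2 lower), beside 10.7% of all tested genes (5.53% higher and 5.16% lower).

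**Figure D1:**
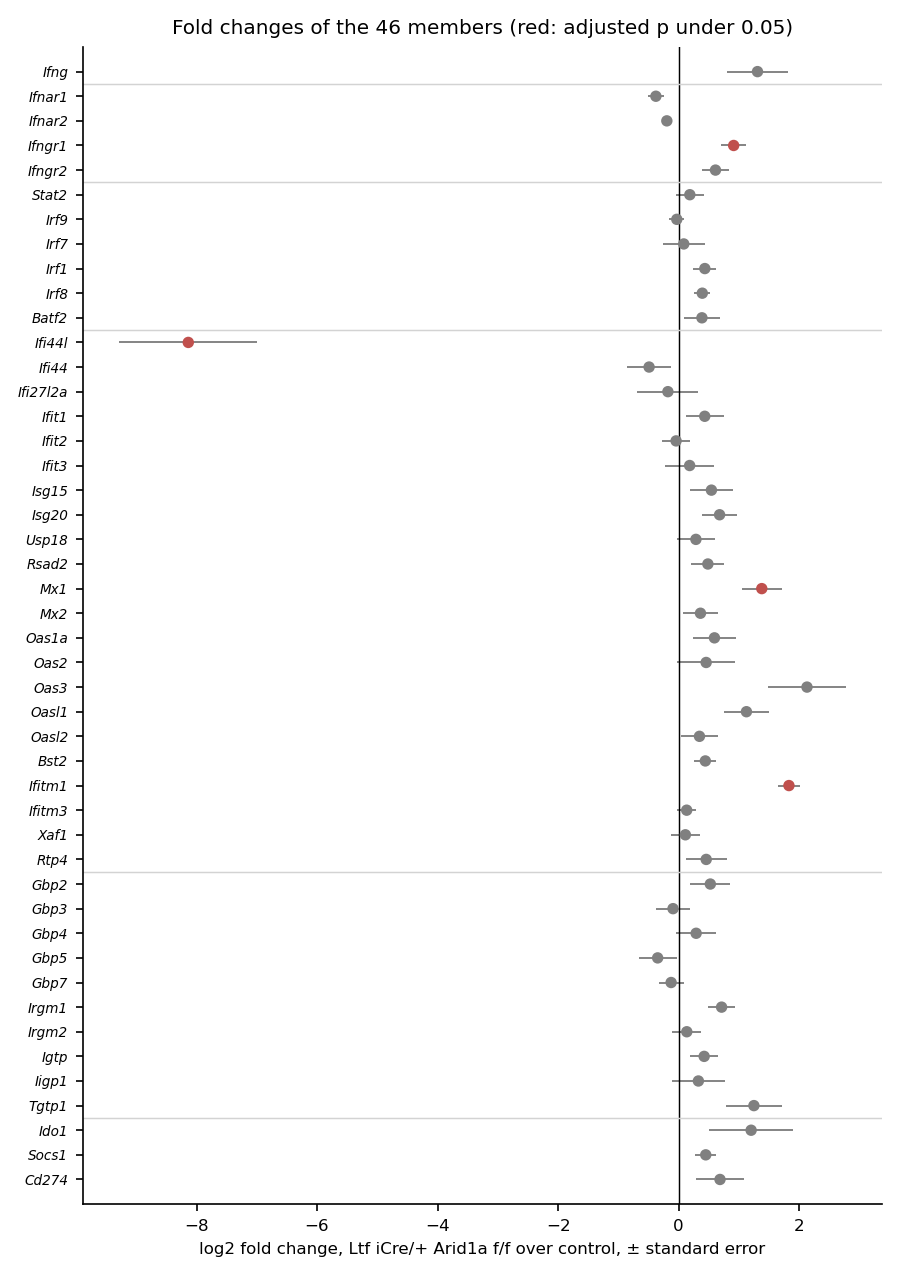
Log2 fold change of each of the 46 interferon genes (x axis, Ltf iCre/+ Arid1a f/f over control, bars are ± 1 standard error), in the order ligand, receptors, transcription factors, antiviral effectors, GTPases and other targets, with genes past the threshold in red. *Ifi44l* lies far to the left at -8.14, and the GTPases range from -0.35 to 1.25 with none past the threshold.

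*Ifng*, the ligand itself, is a T cell and NK cell cytokine and was scarce in every uterus. Its level was 0.252, 0.321, 0.580, 0.156 and 0.359 CPM in control 1 to 5 and 0.220, 0.507, 0.687, 1.67 and 1.04 CPM in iCre 1 to 5. The 3 libraries iCre 3, 4 and 5 exceeded every control, while iCre 1 lay below 4 of the controls, so the groups overlapped. The log2 fold change was 1.31 (standard error 0.51, edgeR adjusted p = 0.127, exact permutation p = 0.0952). T cell markers moved in the same direction. Of 6 such genes 3 rose (*Cd3d*, *Cd3e* and *Cd3g*, the CD3 chains), and the sum of all 6 was 12.0 to 15.5 CPM in controls and 23.0 to 71.0 CPM in iCre uteri. None of 6 NK cell markers was past the threshold, with sums of 32.8 to 71.0 CPM and 15.5 to 60.8 CPM, and the part of either cell type in the *Ifng* values was not tested.

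The receptor for interferon gamma was higher in its ligand-binding chain. *Ifngr1* (ENSMUSG00000020009, chromosome 10 of GRCm38, 19591949 to 19610229) had 61.1, 64.8, 55.8, 59.5 and 69.8 CPM in control 1 to 5 and 151, 71.4, 95.6, 98.8 and 169 CPM in iCre 1 to 5. All 5 iCre values lay above all control values, though iCre 2 exceeded control 5 by little. Control uteri averaged 62.2 ± 5.37 CPM (SD, n = 5) and iCre uteri 117 ± 41.0 CPM (SD, n = 5), a 1.88-fold ratio (exact permutation p = 0.00794, the smallest possible with 5 uteri against 5). On the log2 scale the fold change was 0.91 (standard error 0.20, edgeR adjusted p = 0.0189). It was 0.74 without iCre 5 (edgeR adjusted p = 0.0253) and missed the threshold without control 3, where it was 0.87 (edgeR adjusted p = 0.0562).

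*Ifngr2*, the signalling chain of the same receptor, had 66.8, 66.6, 59.1, 63.1 and 57.3 CPM in control 1 to 5 and 92.0, 75.8, 63.4, 78.8 and 168 CPM in iCre 1 to 5. Of the latter all but iCre 3 exceeded every control. The log2 fold change of 0.61 did not pass the threshold (standard error 0.22, edgeR adjusted p = 0.107, exact permutation p = 0.0238), and it was 0.31 without iCre 5.

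Both chains of the type I interferon receptor pointed the other way. *Ifnar1* had 90.0, 110, 121, 97.2 and 128 CPM in control 1 to 5 and 75.2, 75.8, 87.1, 71.9 and 110 CPM in iCre 1 to 5, which placed all but iCre 5 below every control. Its log2 fold change was -0.38 (standard error 0.14, edgeR adjusted p = 0.102, exact permutation p = 0.0397), and without iCre 5 it passed the threshold (edgeR adjusted p = 0.0233). *Ifnar2*, the high-affinity chain, had 36.3, 37.2, 39.5, 33.8 and 35.7 CPM in control 1 to 5 and 30.6, 32.4, 30.9, 31.9 and 33.4 CPM in iCre 1 to 5. Its groups did not overlap, but the gap was narrow, and its log2 fold change was -0.20 (standard error 0.07, edgeR adjusted p = 0.110, exact permutation p = 0.00794). It passed in DESeq2 (adjusted p = 0.0269). *Ifnar2* shares exon sequence with a gene on the same strand, and reads of the overlap could belong to either.

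**Figure D2:**
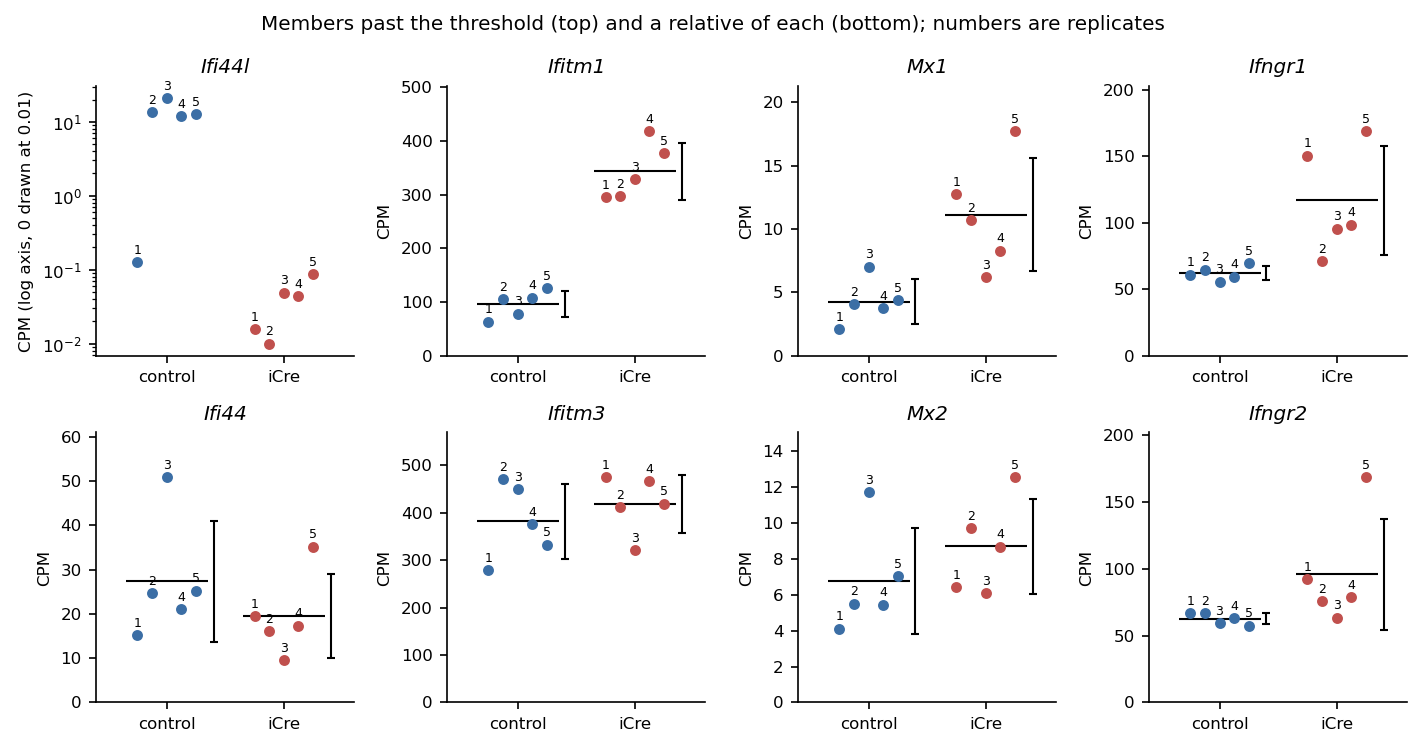
CPM in each uterus for the 4 genes past the threshold (top row) and a relative or partner of each (bottom row), with replicate numbers beside the points, black lines for means and bars for ± 1 SD. *Ifi44l* is drawn on a log axis without mean or SD, with the library at 0 placed at 0.01; control 1 lies near the iCre uteri, while its neighbour *Ifi44* overlaps between genotypes.

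None of the 6 transcription factors was past the threshold in edgeR's test, and 2 had an unadjusted p under 0.05. Their log2 fold changes ran from -0.03 to 0.43 with a median of 0.29. *Irf9*, the DNA-binding part of the type I complex, had the highest mean CPM of these genes over the 10 uteri, not set per length, and the most negative log2 fold change. Its level was 64.9, 73.8, 89.3, 67.8 and 77.8 CPM in control 1 to 5 and 74.3, 63.9, 58.8, 79.9 and 88.8 CPM in iCre 1 to 5, and its log2 fold change was -0.03 (standard error 0.12, edgeR adjusted p = 0.912). *Irf1*, the factor through which interferon gamma reaches many of its later targets, had the largest. Its level was 68.1, 62.8, 66.0, 57.6 and 58.7 CPM in control 1 to 5 and 76.6, 62.0, 59.5, 94.4 and 131 CPM in iCre 1 to 5, and its log2 fold change was 0.43 (standard error 0.19, edgeR adjusted p = 0.174). Values above every control came from iCre 1, 4 and 5, and iCre 2 and 3 lay inside the control range. *Irf8*, a myeloid and B cell factor, had a log2 fold change of 0.39 (edgeR adjusted p = 0.0863) and exceeded every control in 4 of 5 uteri. *Stat2*, *Irf7* and *Batf2* had log2 fold changes of 0.19, 0.09 and 0.39, and exons of *Irf1*, *Irf7*, *Irf9* and *Batf2* overlap those of other genes.

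The 22 antiviral effectors included both extremes of the list. Their log2 fold changes ran from -8.14 to 2.13 with a median of 0.44, and 18 were positive and 4 negative. Past the threshold were 2 higher genes (9.09% of the class, against 5.19% of all tested genes) and 1 lower gene (4.55%, against 4.51%). Compared per kilobase of exon, the levels in controls ranged from 0.473 CPM per kilobase for *Oas3* to 563 for *Ifitm3*, the most abundant gene of the class.

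*Ifi44l*, an interferon-induced gene of the *Ifi44* family, was nearly absent from iCre uteri. It lies on chromosome 3 of GRCm38 from 151758737 to 151762892 (ENSMUSG00000039146). Its level was 0.126, 13.4, 20.8, 12.0 and 12.6 CPM in control 1 to 5, and 0.016, 0, 0.049, 0.044 and 0.087 CPM in iCre 1 to 5. The genotypes did not overlap, but control 1 stood with the iCre uteri rather than with the other controls. The strain make-up of single mice within the mixed background is not given in the sources used here. The counts were 4018 over the 5 controls, of which control 1 gave 9, and 13 over the 5 iCre uteri. Scaled for library size, the level in controls was 286.8 times that in iCre uteri (95% counting interval 167.5 to 539.0). In control 1 alone the ratio was 3.12 (1.18 to 7.89). These intervals cover counting error only. The fitted log2 fold change was -8.14 (standard error 1.15, edgeR adjusted p = 0.00237, exact permutation p = 0.00794), and without control 1 it was -8.46 (edgeR adjusted p = 1.92e-05). The size of the fitted value depends on the prior count, since the iCre libraries were so close to 0.

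The genes beside *Ifi44l* did not share this pattern. *Ifi44*, its paralog and immediate neighbour, had 15.3, 24.7, 50.8, 21.1 and 25.2 CPM in control 1 to 5 and 19.4, 16.2, 9.48, 17.3 and 35.2 CPM in iCre 1 to 5. Its log2 fold change was -0.49 (standard error 0.36, edgeR adjusted p = 0.439). *Ptgfr*, the prostaglandin F receptor gene on the other side, had a log2 fold change of -0.52 (edgeR adjusted p = 0.120).

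*Ifitm1*, a transmembrane protein that blocks virus entry, showed the clearest rise. It lies on chromosome 7 of GRCm38 from 140967221 to 140969825 (ENSMUSG00000025491). Its level was 64.0, 105, 78.6, 108 and 126 CPM in control 1 to 5 and 295, 298, 329, 418 and 376 CPM in iCre 1 to 5, so that the lowest iCre uterus was far above the highest control. Means were 96.5 ± 24.9 CPM (SD, n = 5) and 343 ± 53.2 CPM (SD, n = 5), a 3.56-fold ratio (exact permutation p = 0.00794). The log2 fold change was 1.83 (standard error 0.18, edgeR adjusted p = 0.000507) and stayed between 1.71 and 1.94 when any uterus was left out. Per kilobase of exon *Ifitm1* rose from 88.2 to 314 CPM, while *Ifitm3* stood at 563 and 617.

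The other genes of the *Ifitm* cluster did not pass the threshold. *Ifitm3*, the best known antiviral member of the family, had 279, 471, 449, 375 and 332 CPM in control 1 to 5 and 474, 411, 321, 467 and 419 CPM in iCre 1 to 5. Its log2 fold change was 0.13 (standard error 0.16, edgeR adjusted p = 0.648). *Ifitm2* (-0.26) and *Ifitm5* (-0.25) had small negative log2 fold changes, and the scarce *Ifitm6* had 2.07 (edgeR adjusted p = 0.0664). Other genes of the region rose, and they are named here after their values were seen. *Ano9* and *Pkp3* had log2 fold changes of 3.08 and 1.01 (edgeR adjusted p = 0.00233 and 0.00290), and *Urah* and the nearly absent *Cyp2e1* had 2.40 and 5.68 (edgeR adjusted p = 0.0106 and 0.0497). Epithelial markers rose beside *Ifitm1* and *Ifngr1*. Of 5 such genes 4 were past the threshold (*Krt8*, *Krt7*, *Epcam* and *Cdh1*), and the sum of all 5 was 512 to 660 CPM in controls and 745 to 1641 CPM in iCre uteri. The part of the epithelium in these values was not tested.

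The RNA of *Mx1*, a gene of the dynamin-like GTPases, rose as well. Whether a working protein is made in this mixed background was not tested. *Mx1* lies on chromosome 16 of GRCm38 from 97447035 to 97462907 (ENSMUSG00000000386). Its level was 2.10, 4.10, 7.04, 3.76 and 4.38 CPM in control 1 to 5 and 12.7, 10.7, 6.18, 8.28 and 17.7 CPM in iCre 1 to 5. All but iCre 3 exceeded every control, and the overlap was between iCre 3 and control 3. On the log2 scale the fold change was 1.38 (standard error 0.34, edgeR adjusted p = 0.0265, exact permutation p = 0.0159). It lost the threshold without control 2, control 4 or control 5 (edgeR adjusted p = 0.0670, 0.0652 and 0.0566). The neighbouring *Mx2* had 4.11 to 11.7 CPM in controls and 6.10 to 12.5 CPM in iCre uteri, with a log2 fold change of 0.36 (edgeR adjusted p = 0.483).

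The genes of the oligoadenylate synthetase family, whose active enzymes sense double-stranded RNA and activate RNase L, were spread widely. *Oas3* had the largest positive log2 fold change of all 46 genes. Its level was 0.825, 3.33, 7.51, 2.50 and 2.57 CPM in control 1 to 5 and 13.9, 7.44, 3.22, 13.8 and 34.8 CPM in iCre 1 to 5. It exceeded every control in iCre 1, 4 and 5, whereas iCre 3 lay amid the controls. The log2 fold change was 2.13 (standard error 0.64, edgeR adjusted p = 0.0590, exact permutation p = 0.0397). It passed without control 3 or iCre 3 (edgeR adjusted p = 0.0443 and 0.0308) and in DESeq2 (adjusted p = 0.0173). *Oasl1* followed with 1.13 (edgeR adjusted p = 0.0762), while *Oas1a*, *Oas2* and *Oasl2* had log2 fold changes of 0.59, 0.46 and 0.35.

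The remaining antiviral genes gave no call. The ubiquitin-like modifier gene *Isg15* had 6.64 to 25.6 CPM in controls and 9.03 to 33.8 CPM in iCre uteri (log2 fold change 0.54, edgeR adjusted p = 0.383). *Usp18*, which removes that modifier, had a log2 fold change of 0.29. The RNA-binding *Ifit1*, *Ifit2* and *Ifit3* had 0.43, -0.04 and 0.18. Viperin (*Rsad2*) and tetherin (*Bst2*) had 0.49 and 0.44, the exonuclease *Isg20* had 0.68, *Rtp4* 0.46, *Xaf1* 0.11 and *Ifi27l2a* -0.18. The adjusted p of these 11 genes in edgeR's test lay between 0.151 and 0.934. In 13 of the 22 genes the lowest of the 10 values was that of control 1, and in 14 the highest was that of iCre 5. The share of all tested genes with such a pattern was not counted.

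None of the 10 interferon gamma-type GTPases passed the threshold in edgeR's test, 2 had an unadjusted p under 0.05 and DESeq2 called 2 (*Irgm1* and *Tgtp1*). Each is 2 of 10 genes, where 26.2% of all tested genes had such a p and DESeq2 called 17.6% of the genes it tested. A further pathway list of interferon gamma-type GTPases, 13 other genes that were tested, held 5 that rose (38.5%, against 5.19% of all tested genes). That list was chosen with earlier results of these data known, so its share does not measure enrichment. The 5 genes were *Tgtp2*, *Gm12250*, *Gm4841* and, named after their values were seen, *Gbp8* (log2 fold change 1.21, edgeR adjusted p = 0.0379) and *Ifi47* (1.04, edgeR adjusted p = 0.0403). Most of these 5 calls were lost in some fits that left out a uterus, and the cause was not tested. The log2 fold changes of all 5 stayed positive in these fits. Over the 10 fits that each left out a uterus, *Tgtp2* kept the threshold in all 10. *Gm4841* kept it in 4, *Gm12250* in 3, and *Gbp8* and *Ifi47* in 2 each. Among the 10 interferon gamma-type GTPases, log2 fold changes ran from -0.35 to 1.25 with a median of 0.31. Of these values 7 were positive and 3 negative. No gene of the class separated the genotypes, beside 10.7% of all tested genes. Per kilobase of exon the control levels lay between 0.809 CPM for *Tgtp1* and 20.6 CPM for *Gbp3*.

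The immunity-related GTPases coat and break parasite vacuoles, and the 5 among the 46 genes had positive log2 fold changes with all uteri in the fit. *Irgm1*, a regulator of the other immunity-related GTPases with the highest mean CPM of the class over the 10 uteri (not set per length), had 61.7, 70.6, 92.4, 60.1 and 60.6 CPM in control 1 to 5 and 118, 84.7, 65.0, 143 and 156 CPM in iCre 1 to 5. It exceeded every control in iCre 1, 4 and 5. On the log2 scale the fold change was 0.71 (standard error 0.22, edgeR adjusted p = 0.0682, exact permutation p = 0.0635) and passed without iCre 3 (edgeR adjusted p = 0.0196). *Tgtp1* had 2.36, 1.85, 4.04, 1.97 and 2.73 CPM in control 1 to 5 and 5.43, 2.01, 2.35, 8.56 and 12.4 CPM in iCre 1 to 5. Its log2 fold change of 1.25 was the largest of the class (standard error 0.47, edgeR adjusted p = 0.117), but iCre 2 and 3 were within the controls. *Tgtp1* has a near-identical copy, *Tgtp2*, so its counts are uncertain. *Igtp*, *Iigp1* and *Irgm2* had log2 fold changes of 0.42, 0.33 and 0.14, and the exons of *Irgm2* and *Igtp* overlap. Without iCre 4 the values were -0.08 for *Iigp1* and -0.05 for *Irgm2*. *Gm4951* and *F830016B08Rik*, relatives in the pathway lists, had -1.30 and -1.63 with no call.

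The guanylate-binding proteins, which gather on pathogen membranes, gave mixed signs. *Gbp5*, which also promotes inflammasome assembly, had the lowest log2 fold change of the class. Its level was 14.0, 13.8, 20.1, 12.1 and 17.2 CPM in control 1 to 5 and 7.68, 8.10, 7.37, 14.2 and 23.3 CPM in iCre 1 to 5. The values of iCre 1, 2 and 3 lay below every control and that of iCre 5 above every control, which gave a log2 fold change of -0.35 (standard error 0.31, edgeR adjusted p = 0.537). *Gbp3* and *Gbp7* had log2 fold changes of -0.09 and -0.12, and *Gbp2* and *Gbp4* had 0.53 and 0.29. *Gbp2* was at 0.12 without iCre 5 and *Gbp4* at 0.04 without iCre 4. *Gbp4* shares exon sequence with *Gbp8* and *Gbp9*.

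The 3 other interferon gamma targets had positive log2 fold changes with no call in edgeR's test, where 1 had an unadjusted p under 0.05 and which DESeq2 also called (*Socs1*). *Ido1*, the tryptophan-degrading enzyme, had 0.182, 0.251, 0.580, 0.213 and 0.244 CPM in control 1 to 5 and 0.110, 0.254, 0.180, 1.15 and 1.68 CPM in iCre 1 to 5. Only iCre 4 and 5 exceeded the controls (log2 fold change 1.20, standard error 0.70, edgeR adjusted p = 0.313). *Cd274*, which encodes the checkpoint ligand PD-L1, had 6.74, 6.91, 8.04, 10.2 and 9.12 CPM in control 1 to 5 and 4.19, 9.90, 8.75, 16.0 and 27.2 CPM in iCre 1 to 5 (log2 fold change 0.69, standard error 0.39, edgeR adjusted p = 0.302). Again the values above every control were those of iCre 4 and 5, and without iCre 5 the log2 fold changes of *Ido1* and *Cd274* were 0.54 and 0.24. *Socs1*, the feedback inhibitor of JAK kinases, had 5.11, 4.20, 4.50, 3.47 and 3.50 CPM in control 1 to 5 and 5.03, 5.19, 5.54, 7.26 and 5.34 CPM in iCre 1 to 5 (log2 fold change 0.45, standard error 0.17, edgeR adjusted p = 0.120).

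**Figure D3:**
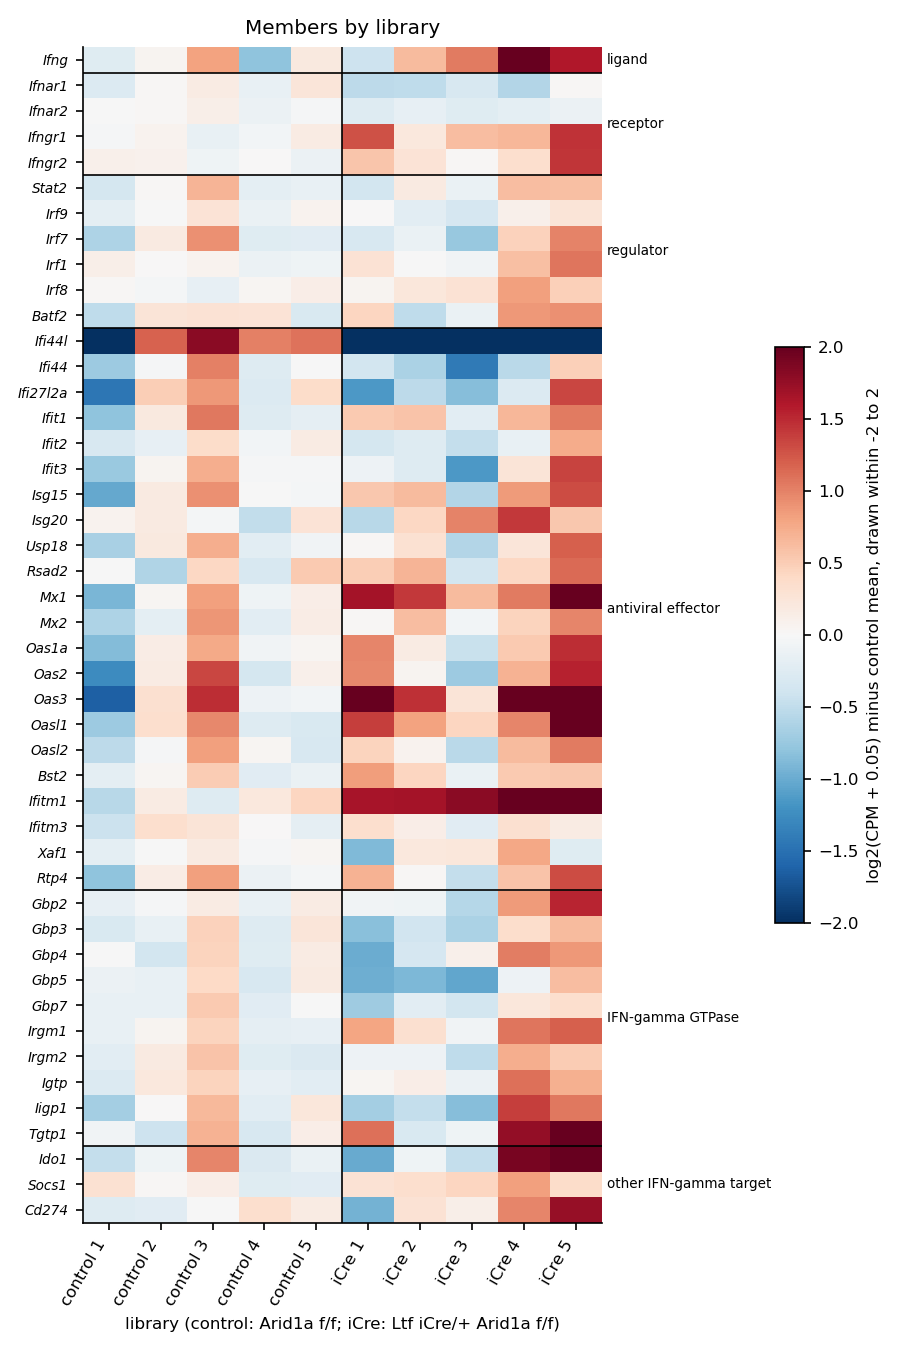
Heat map of the 46 genes (rows, by class) in the 10 uteri (columns), coloured by the log2 of CPM plus 0.05 minus the mean of the controls, drawn within -2 to 2. Control 3, iCre 4 and iCre 5 are red and control 1 blue across most antiviral effectors, *Ifi44l* and *Ifitm1* are uniform across the iCre uteri, and the GTPases are red in iCre 4 and iCre 5.

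The classes were compared through the median, in each uterus, of their genes' log2 CPM relative to the control mean. For the antiviral effectors this median was -0.73, 0.16, 0.82, -0.11 and 0.02 in control 1 to 5 and 0.47, 0.26, -0.41, 0.55 and 1.17 in iCre 1 to 5. For the GTPases it was -0.15, -0.08, 0.46, -0.23 and 0.15 in control 1 to 5 and -0.39, -0.26, -0.44, 0.94 and 0.79 in iCre 1 to 5. The iCre uteri were therefore not alike. In iCre 4 and 5 both classes were high, in iCre 3 both were low, and in iCre 1 and 2 the antiviral median was above the control mean and the GTPase median below it. Among controls, control 3 was high and control 1 low for the antiviral genes by about as much.

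The pooled SD of these medians between uteri of one genotype was 0.56 for the antiviral effectors and 0.52 for the GTPases. The medians of the fitted log2 fold changes, 0.44 and 0.31, were smaller than that spread. Such an SD describes single uteri and is not the standard error of a difference between group means. The GTPase median minus the antiviral median was -0.13 for the fitted log2 fold changes and was 0.58, -0.24, -0.36, -0.13 and 0.13 in control 1 to 5 and -0.86, -0.52, -0.03, 0.39 and -0.38 in iCre 1 to 5 (pooled SD 0.43). Hence the difference between the classes was less than the spread between uteri, and it turned positive without iCre 1 (0.10) or iCre 2 (0.01). The antiviral median was 0.25 without control 1 and 0.19 without iCre 5. The GTPase median was 0.00 without iCre 4 and 0.11 without iCre 5, and 0.46 and 0.50 without control 3 and iCre 1. The genes of a class share each library, so these medians are descriptions and were not tested.

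**Figure D4:**
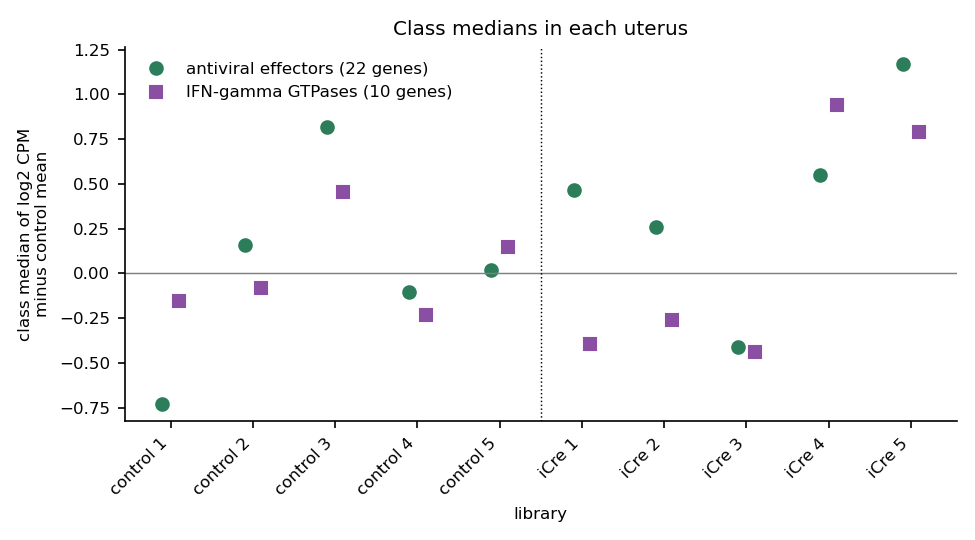
Median over the 22 antiviral effectors (circles) and over the 10 GTPases (squares) of log2 CPM minus the control mean, for each uterus on the x axis. The control medians span -0.73 to 0.82 for the antiviral genes, and the GTPases are above the controls in iCre 4 (0.94) and iCre 5 (0.79) but below them in iCre 1 to 3.

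Counting genes gave the same picture. The number of the 46 genes above every control was 13, 9, 7, 23 and 35 in iCre 1 to 5. For the antiviral effectors it was 7, 5, 3, 7 and 17 of 22, and for the GTPases 2, 0, 0, 7 and 8 of 10. The highest of the 10 values fell in iCre 5 for 26 genes and in iCre 4 for 10, and the lowest fell in control 1 for 14 genes, in iCre 3 for 10 and in iCre 1 for 9. No share over all tested genes was set beside these counts. They describe the uteri and do not set the interferon genes apart from other genes.

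Leukocyte markers also varied between these libraries. The 7 macrophage markers summed to 158 CPM in control 1 and 276 to 328 CPM in the other controls, and to 293, 277, 285, 380 and 673 CPM in iCre 1 to 5, with none past the threshold. The 5 inflammatory monocyte markers summed to 287 to 527 CPM in controls and to 251, 332, 464, 560 and 849 CPM in iCre 1 to 5, with 1 past the threshold. The 3 plasmacytoid dendritic cell markers, from the cell type known for making type I interferon, summed to 3.06 CPM in control 1, to 8.70 to 11.5 CPM in the other controls and to 6.79 to 8.81 CPM in iCre uteri. The 5 endothelial markers all fell, from 669 to 936 CPM in controls to 305 to 464 CPM. The 6 dendritic cell markers summed to 49.1 to 62.8 CPM in controls and to 63.0, 61.4, 60.6, 99.5 and 53.7 CPM in iCre 1 to 5, with 1 past the threshold and lower. The 4 B cell markers, with none past it, summed to 5.78 to 12.1 CPM in controls and to 9.77, 2.99, 11.8, 11.4 and 24.3 CPM in iCre 1 to 5. Of 5 stromal markers 2 fell, *Vim* and *Dcn* (log2 fold changes -0.94 and -0.65, edgeR adjusted p = 0.0139 and 0.0109). *Pdgfra* had -0.70 with no call, and *Col1a1* and *Col1a2* had positive values of 0.33 and 0.07 with no call. The sum of the stromal markers overlapped, at 8993 to 12890 CPM in controls and 7458 to 15590 CPM in iCre uteri. No macrophage, monocyte, plasmacytoid dendritic cell or endothelial marker had a library at 0. The part of these cell types in the interferon gene values was not tested.

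Promoter sequence was set side by side for the classes. Windows from 250 bases before to 50 bases after the transcription start (RefSeq, GRCm38.p6) were on hand for 36 of the 46 genes, among them 16 antiviral effectors and 8 GTPases. The letters TTTC repeated after 2 bases of any kind, the core of the interferon-stimulated response element, were sought on both strands and were present for 8 of the 8 GTPases, for 8 of the 16 antiviral effectors (50.0%) and for 3.99% of all 27025 genes with a window. The letters TTC and GAA with 3 bases of any kind between them, the core of the gamma-activated site, which read the same on both strands, were present for 5 of the 8 GTPases (62.5%), for 5 of the 16 antiviral effectors (31.2%) and for 9.55% of all genes. Both classes held both motifs, and the response element core was in the windows of all 8 GTPases. Matching letters are a description and not proof of binding. The windows of *Ifi44l*, *Ifitm1* and *Ifngr1* held neither set of letters in 300 bases, and *Mx1* had no window. The *Ifitm1* window (140967826 to 140968125) lies inside the annotated gene, so the bases before its annotated start at 140967221 were not searched. Stretches of 60 bases upstream of exons are printed 5′ to 3′ on the strand of the gene, with motif matches in capitals. They come from 4 GTPases, 3 antiviral effectors and *Irf1*, and show how the elements sit.
*Igtp* (chr11:58199485-58199544, plus strand): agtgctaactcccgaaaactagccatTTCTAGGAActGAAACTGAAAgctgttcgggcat
*Irgm2* (chr11:58214876-58214935, plus strand): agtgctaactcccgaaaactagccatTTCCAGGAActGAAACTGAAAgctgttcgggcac
*Tgtp1* (chr11:48992289-48992348, minus strand): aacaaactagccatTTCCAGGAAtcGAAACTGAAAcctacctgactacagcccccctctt
*Gbp7* (chr3:142530258-142530317, plus strand): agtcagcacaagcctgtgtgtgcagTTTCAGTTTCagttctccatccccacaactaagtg
*Isg15* (chr4:156200862-156200921, minus strand): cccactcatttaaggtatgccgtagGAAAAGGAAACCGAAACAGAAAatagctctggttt
*Ifit1* (chr19:34640760-34640819, plus strand): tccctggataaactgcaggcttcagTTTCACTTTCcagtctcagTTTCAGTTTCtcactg
*Oas3* (chr5:120777700-120777759, minus strand): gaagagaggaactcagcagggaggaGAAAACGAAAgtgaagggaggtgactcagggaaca
*Irf1* (chr11:53769898-53769957, plus strand): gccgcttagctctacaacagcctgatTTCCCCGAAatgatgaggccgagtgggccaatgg
The *Igtp* and *Irgm2* stretches shared 58 of 60 bases, and in both, as in *Tgtp1*, a gamma-activated site core stood just before a response element core. *Oas3*, *Irgm1*, *Isg15* and *Igtp* are examples from the 18 genes whose windows held a response element core. Their log2 fold changes were 2.13, 0.71, 0.54 and 0.42, none past the threshold. Among the others of the 18, *Gbp5*, *Gbp7* and *Gbp3* had negative values (-0.35, -0.12 and -0.09) and the rest positive ones. A link between motif and fold change was not tested.

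Other genes of the pathway came from 6 lists with 96 entries, of which 84 were tested. The lists were chosen with earlier results of these data known, so a share of called genes in them does not measure enrichment. *Gm4951* stands there under 2 names, which leaves 83 genes. Of these 15 were higher and 4 lower past the threshold in edgeR's test, 22.9% in all beside 9.70% of all tested genes. The count was 7 to 20 when a uterus was left out, with 7 without control 2, 10 without control 3 or control 4, and 11 without control 5 or iCre 4. Of 13 type I and III interferon ligands only *Ifne*, the epsilon interferon of the reproductive tract epithelium, was tested. The other 12 had no more than 1 count in any library, so their transcripts were not detectable at this depth. *Ifne* had 0.454 to 1.05 CPM in controls and 0.287 to 3.57 CPM in iCre uteri (log2 fold change 0.96, edgeR adjusted p = 0.340).

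*Ifnlr1*, the ligand-binding chain of the type III interferon receptor, which is largely an epithelial receptor, rose in every iCre uterus. Its level was 13.3, 12.2, 12.0, 13.9 and 10.3 CPM in control 1 to 5 and 51.4, 22.0, 28.3, 27.5 and 43.1 CPM in iCre 1 to 5 (log2 fold change 1.48, standard error 0.22, edgeR adjusted p = 0.00273). *Epsti1*, an interferon-responsive gene named for epithelial-stromal interaction, rose from 10.6 to 17.4 CPM in controls to 20.6 to 84.0 CPM (log2 fold change 1.92, edgeR adjusted p = 0.00833). *Ifit1bl1* rose with a log2 fold change of 2.63 from under 1 CPM in every control (edgeR adjusted p = 0.0132), and *Tgtp2* with 1.74 (edgeR adjusted p = 0.0140). These 4 genes were past the threshold with any uterus left out. With the replicate number as a block, *Ifit1bl1* and *Tgtp2* missed it (edgeR adjusted p = 0.0636 and 0.0547). *Ifit1bl1* in iCre 3 (0.867 CPM) lay below control 3 (0.971 CPM). The counts of *Tgtp2* are uncertain, since *Tgtp1* is a near-identical copy. *Nlrc5*, the activator of MHC class I genes, had a log2 fold change of 1.26 and was past the threshold except without control 2 (edgeR adjusted p = 0.0555). *Slfn2*, a regulator of immune cell quiescence, had 1.22 and lost the threshold without control 2 or control 4 (edgeR adjusted p = 0.0517 and 0.0506). The immunity-related GTPase genes *Gm4841* and *Gm12250* had 1.96 and 1.61. *Gm4841* lost the threshold without control 2, 3, 4 or 5 or iCre 4 or 5, and *Gm12250* without control 1, 2, 4 or 5 or iCre 1, 4 or 5, with edgeR adjusted p up to 0.0906 and 0.0881.

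The 4 lower genes, named after their values were seen, were the kinase genes *Jak1* and *Jak2*, the RNA sensor *Ddx58* and *Ifi27*. Their log2 fold changes were -0.43, -0.45, -0.44 and -0.56 (edgeR adjusted p = 0.0206, 0.0170, 0.0346 and 0.0219). *Jak1*, the kinase shared by all interferon receptors, had 367, 385, 440, 351 and 431 CPM in control 1 to 5 and 256, 303, 333, 287 and 283 CPM in iCre 1 to 5, with no overlap. *Jak2*, the kinase of IFNGR2, had 322 to 401 CPM in controls and 240 to 294 CPM in iCre uteri. Of the 4, *Jak2* alone kept the threshold with any uterus left out. *Jak1* lost it without control 3 (edgeR adjusted p = 0.0540), *Ifi27* without control 2, 3 or 5 (up to 0.0610) and *Ddx58* without control 1, 2 or 3 or iCre 1, 4 or 5 (up to 0.0841).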

How the data were processed

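The authors removed adapters (cutadapt 1.18, Trim Galore 0.6.4), mapped the reads to GRCm38 with STAR 2.7.3a and used its GeneCounts mode. They deposited raw counts per Ensembl gene for the 10 libraries, without normalization. The strand setting and the annotation release are not given in the sources used here, so reads of overlapping genes may be shared. Symbols, positions and exon lengths came from a GENCODE annotation of GRCm38. Genes that averaged 1 count or more were tested in R 4.3.3 with edgeR 4.0.16 (TMM, quasi-likelihood, genotype only). DESeq2 1.42.0 was the alternative test, with other normalization, other filters, the replicate number as a block and omission of uteri as further alternatives. Exact permutation tests were two-sided over the 252 arrangements of mean log2 CPM (prior count 2). Sample sizes count animals per the study's methods, so each library was taken as 1 mouse. The fits were tested on simulated data. Drawings used matplotlib 3.10.9.

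The 46 genes, the pathway lists and the marker lists were chosen with earlier results of these data known. Each library is given for genes past the threshold, *Ifng*, the receptors and, in classes of 3 or more genes, the most abundant gene and those with the largest and smallest log2 fold change. From the pathway lists at most 8 called genes of largest absolute log2 fold change are named by rule, and some genes are not reported here.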

Additional observations from a re-analysis of the deposited data

Results flagged for a closer look

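In 5 of 92 checks (46 genes in each genotype), 1 uterus lay apart from the other 4 on the log2 CPM scale, its gap to the nearest value exceeding 0.71 of the group's range. Chance gives this in about 1 in 20 groups, so the number is near what chance gives. For *Ifi44l*, control 1 (0.126 CPM) was the lowest control, with a gap of 0.887 of the range. *Gbp7* in control 3 (94.2 CPM, gap 0.726) and *Ido1* in control 3 (0.580 CPM, gap 0.733) were the highest controls. *Ifit2* in iCre 5 (44.0 CPM, gap 0.736) and *Socs1* in iCre 4 (7.26 CPM, gap 0.737) were the highest Ltf iCre/+ Arid1a f/f uteri.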

How the results depend on the processing

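*Ifi44l* and *Ifitm1* were past the threshold with each uterus left out. DESeq2 called 8 interferon genes higher and 2 lower (21.7% of the 46), beside 4062 genes in all (17.6% of those it tested). The filter of edgeR removed *Ifi44l*, leaving 0 lower. Without iCre 1 and 5 there were 2 lower genes. With 1 uterus left out there were 2 to 6 higher and 1 to 2 lower interferon genes, 7 to 20 pathway genes and 1204 to 2381 genes in all; the cause was not tested. Replicate numbers were not taken as a pairing (correlations of same-numbered uteri -0.05 to 0.13). Such correlations cannot exclude shared litters. The paper compared littermates where it could, and the sample labels do not give litters. With the replicate number as a block, 2 interferon genes were lower (*Ifi44l* and *Ifnar1*), *Mx1* missed the threshold (edgeR adjusted p = 0.0695) and 11 pathway genes were called. When 1 uterus was left out, the log2 fold change moved by over 1.5 times or changed sign for 33 of the 46 genes, none of them past the threshold. The log2 fold changes that changed sign were never past the threshold. Leaving out 1 uterus moved *Gbp3* between -0.33 and 0.049, *Gbp7* between -0.26 and 0.028, *Ifi27l2a* between -0.86 and 0.054, *Ifit2* between -0.32 and 0.055, *Ifit3* between -0.30 and 0.40, *Iigp1* between -0.078 and 0.52, *Irf7* between -0.22 and 0.38, *Irf9* between -0.11 and 0.038, *Irgm2* between -0.046 and 0.30, *Usp18* between -0.034 and 0.50 and *Xaf1* between -0.11 and 0.28. Without iCre 1 and 5, *Ifit3* was at -0.34, *Irf7* at -0.16, *Oas2* at -0.12 and *Usp18* at -0.031. The fold changes of genes near 0 counts, *Ifi44l* and *Ido1*, are limited by depth.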

Other observations

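Some GTPase genes of the pathway lists, named after their values were seen, were uneven among controls. *Gbp2b*, a guanylate-binding protein gene beside *Gbp2* on chromosome 3, had 0.154, 15.9, 43.3, 0.085 and 0.115 CPM in control 1 to 5 and 0.267, 0.270, 0.164, 1.00 and 1.24 CPM in iCre 1 to 5. It was high in control 2 and control 3 and near 1 CPM or less elsewhere, and its log2 fold change of -4.32 did not pass the threshold (edgeR adjusted p = 0.108). *Gm4951* had 1.86, 12.2, 19.3, 11.6 and 15.7 CPM in control 1 to 5 and 3.47, 2.30, 2.29, 7.97 and 8.67 CPM in iCre 1 to 5. As for *Ifi44l*, control 1 was the lowest control.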
